A study of Mus musculus with 6 samples.

Results

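The Kruppel-like factors of the heart were examined in left ventricles of wild-type mice (WT) and of mice with a human Glut1 transgene (Glut1-TG), with 3 hearts in each group and 1 array per heart. The family was taken as 10 genes (Klf15, Klf12, Klf3, Klf10, Klf11, Klf9, Klf13, Klf2, Klf4 and Klf6) out of 18193 genes that the array measured under a single symbol. Every probe set annotated with 1 of these symbols and no other was used, 33 in all. The genes were selected with results from these same arrays known, in which Klf15 and Klf12 were lower and Klf10 was higher in Glut1-TG hearts, so the differences of the members between the groups are given as a description and no test of them is independent of that choice.

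Kruppel-like factors are zinc-finger transcription factors that bind CACCC and GC-rich elements in promoters and enhancers, where they share sites with the Sp factors. The zinc fingers are alike across the family, while the rest of the protein sets what each member recruits. Klf3 and Klf12 recruit the CtBP corepressors, Klf9, Klf10, Klf11 and Klf13 recruit the Sin3 corepressor complex, Klf2, Klf4 and Klf6 are best known as activators of stress and differentiation programmes, and Klf15 is a regulator of amino acid, lipid and glucose metabolism in heart, liver and skeletal muscle.

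All 6 mice were FVB males of 11 to 12 weeks on standard chow. The Glut1-TG mice carried human Glut1 under the alpha-myosin heavy chain promoter, which is active in cardiomyocytes, and glucose transport into these cells is thereby raised. The labels name no other allele and no agent for either group. Levels are Affymetrix signal intensities on a linear scale, and differences are Glut1-TG minus WT on the log2 scale with a 95% confidence interval from a limma fit of all 27022 probe sets above the lowest 40% by mean log2 signal (a mean that corresponds to a signal of 115). The median signal over all probe sets was 213 on Glut1-TG array 1 and between 171 and 187 on the other 5 arrays. The mouse Glut1 gene Slc2a1 read 526.7, 408.6 and 532.9 in WT and 851.1, 753.1 and 757.2 in Glut1-TG hearts. How far its mouse probes also read the human transgene was not tested.

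Of the 33 probe sets, 29 passed the filter on dim values and 4 did not, and each of the 10 genes had at least 1 that passed. Klf10 was higher, and Klf15 and 1 probe set of Klf12 were lower, in every Glut1-TG heart than in every WT heart, while the probe sets of Klf2, Klf4, Klf6, Klf9 and Klf13 overlapped between the groups. In the limma fit of probe sets, 1 of 29 was called higher at an adjusted p under 0.05 (0.148% of all probe sets) and 0 of 29 were called lower (0.289% of all probe sets). At an unadjusted p under 0.05 there were 2 higher (Klf10 and Klf3 1441200_at) and 2 lower (Klf15 and Klf12 1439846_at). The share of all probe sets at this unadjusted threshold is not given here, so these counts have no background beside them. In the fit with 1 probe set per gene, over 13178 genes, 1 of the 10 genes was called higher (0.258% of all genes) and 2 were called lower (0.599% of all genes). All 3 Glut1-TG arrays lay above all 3 WT arrays in 3 of 29 probe sets (8.12% of all probe sets) and below them in 2 of 29 (7.91% of all probe sets). The median difference of the 29 probe sets was 0.042, against 0.022 over all probe sets tested, and 22 of the 29 lay within 0.25 of 0.

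**Figure D1:**
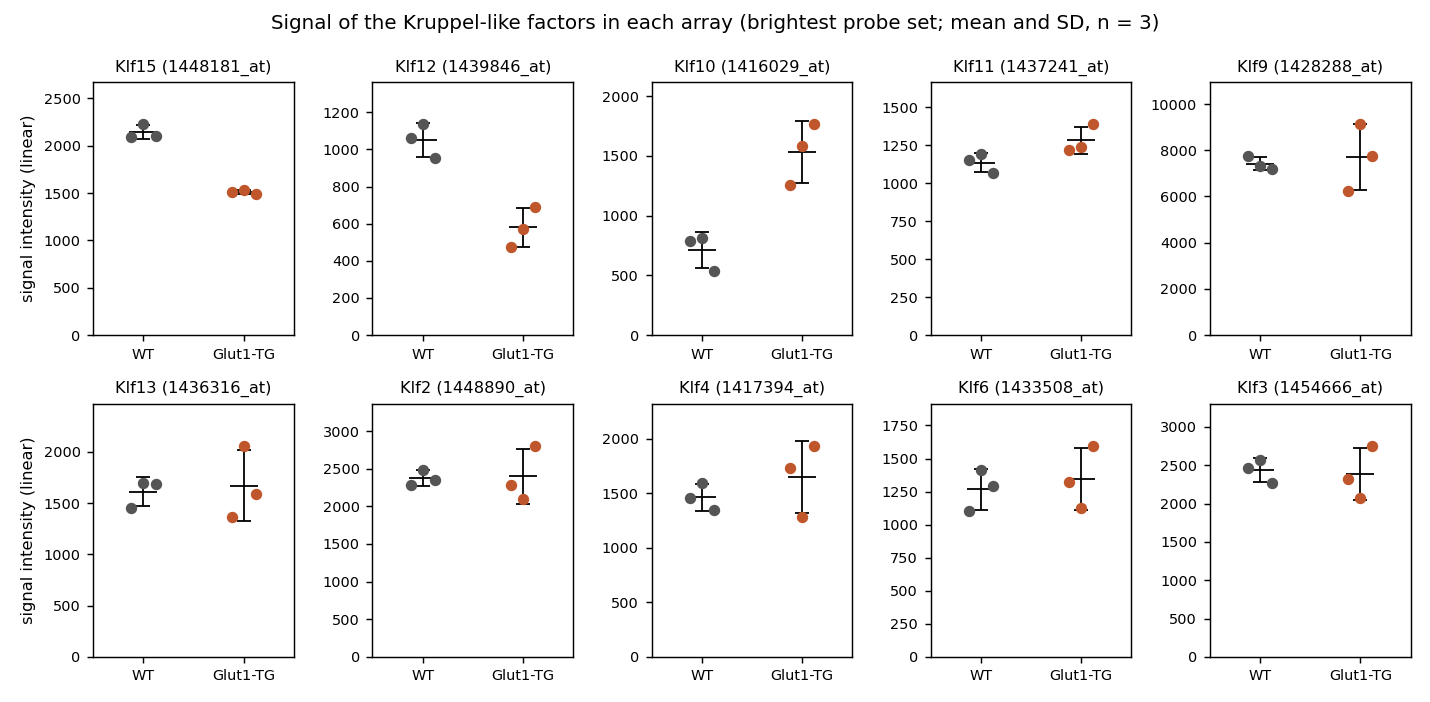
Signal intensity (linear scale, axis from 0) of the probe set with the highest mean signal of each of the 10 genes, in 3 WT (grey) and 3 Glut1-TG (orange) hearts. Points are single arrays, the long bar is the mean and the short bars are 1 SD over 3 arrays. Klf15 and Klf12 sit lower and Klf10 sits higher in all Glut1-TG hearts, Klf11 is separated by a narrow gap, and the other 6 genes overlap.

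Klf15, which drives genes of branched-chain amino acid breakdown and restrains cardiomyocyte growth, was read by 1 probe set, 1448181_at. Its signal was 2096, 2225 and 2106 in the WT hearts and 1510, 1534 and 1488 in the Glut1-TG hearts. The groups were far apart relative to their spread, and the Glut1-TG hearts differed from each other by less than the WT hearts did. The mean fell from 2142 ± 71.9 (SD, n = 3) to 1511 ± 23.1 (SD, n = 3), so the Glut1-TG signal was 0.705 of the WT signal (95% confidence interval 0.611 to 0.814). On the log2 scale the difference was -0.50 (standard error 0.089). The limma fit of single genes gave it an adjusted p of 0.039, and the fit of probe sets gave 0.055. When 1 array at a time was left out the difference stayed between -0.52 and -0.48, and the adjusted p of the gene was between 0.058 and 0.19 in each of the 6 fits.

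The sequence before the start of Klf15 is shown because it carries response-element letters of CREB, the cyclic AMP-responsive activator, and of the clock factors, whose genes were measured on the same arrays. RefSeq (GRCm38.p6) places 250 bases before a Klf15 start at chr6:90462326-90462575 on the plus strand. This start lies 1533 bases inside the 5' end of the gene, so it is not the outermost start. The transcript form that begins there was not looked at. Capitals mark the CREB half-site TGACG, which reads as CGTCA on the other strand, and the E-box CACGTG, which reads the same on both strands.

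Klf15: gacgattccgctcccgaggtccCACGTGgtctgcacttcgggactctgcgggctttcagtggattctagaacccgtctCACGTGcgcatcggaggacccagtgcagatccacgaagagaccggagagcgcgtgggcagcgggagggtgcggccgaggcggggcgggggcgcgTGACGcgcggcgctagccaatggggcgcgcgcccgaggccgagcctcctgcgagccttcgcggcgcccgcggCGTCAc

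The half-site occurred 2 times, 78 and 6 bases before the start, and the E-box 2 times, 228 and 172 bases before it, with no shared bases between the matches. A CACCC box (CACCC, or GGGTG on the other strand) lay 107 bases and a GC box (GGGCGG or CCGCCC) 91 bases before the start. The window was 72.0% G and C, against a median of 52.4% over 32851 windows of the same length.

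Of the 10 genes, 9 had a window in the set of promoter sequences used here, which held none for Klf10. The half-site was found in 6 of these 9 windows and in 17.8% of all windows, the E-box in 4 of 9 and 6.02%, the CACCC box in 6 of 9 and 52.0%, and the GC box in 7 of 9 and 32.7%. G and C content of the 9 windows ran from 48.0 to 78.4%, and its part in these shares was not tested. Klf3 had the most letters that the family itself binds, with 5 CACCC boxes and 6 GC boxes and no half-site. Neighbouring GC boxes in the Klf4 and Klf11 windows shared bases. The other 5 windows with the half-site are shown as 30 bases around it, with the half-site in capitals, so that the flanks can be read side by side. Klf12, like Klf15, had a brightest probe set that was lower in all Glut1-TG hearts, and the groups overlapped in the other 4 genes.

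Klf12: ccattgcctccatCGTCAggtggcttcccc

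Klf2: ctggtttgtTGACGccgtcgccatagggac

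Klf4: gctgcctggctggCGTCAcggcctggcccc

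Klf9: ggggcctggattgTGACGtgatgggattct

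Klf13: tgtggctgggggcTGACGtcgggtccagat

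They lie at chr14:100149870-100149899 (minus strand) for Klf12, chr8:72318812-72318841 (plus) for Klf2, chr4:55532691-55532720 (minus) for Klf4, chr19:23141167-23141196 (plus) for Klf9 and chr7:63938955-63938984 (minus) for Klf13. The half-site stood 90, 241, 232, 46 and 56 bases before the start in that order, and the Klf12 start lies 136095 bases inside the 5' end of its gene. These matches are letters in a reference sequence, and binding was not measured on the arrays.

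Klf12, a repressor first described at the gene of the factor AP-2alpha, had 5 probe sets that did not share a direction. On 1439846_at the signal was 1063, 1135 and 951.8 in WT and 476.6, 573.1 and 689.9 in Glut1-TG hearts, with no overlap. The mean fell from 1050 ± 92.1 (SD, n = 3) to 579.9 ± 107 (SD, n = 3), a difference of -0.87 (interval -1.23 to -0.50), with an adjusted p of 0.045 among genes and 0.059 among probe sets (limma). On 1439847_s_at, designed from the same cDNA entry, the signal was 403.1, 280.5 and 318.5 in WT and 237.5, 440 and 432.9 in Glut1-TG hearts. The groups overlapped there, with a difference of 0.11 (interval -0.52 to 0.74). A further probe set, 1455521_at, read 165.8, 122.6 and 131 in WT and 129.5, 159.5 and 206.6 in Glut1-TG hearts, a difference of 0.23 (interval -0.58 to 1.03). The remaining pair, 1422227_at and 1441040_at, lay under the filter with signals of 14.1 to 221.8. The lower reading of Klf12 thus came from 1 probe set of 5, and with the mean of its 3 passing probe sets in place of the brightest one the difference was -0.18 (adjusted p = 0.82, limma). With 1 array left out at a time, the difference on 1439846_at ran from -1.002 to -0.74 and the adjusted p of the gene from 0.033 to 0.20, under 0.05 in the fit without Glut1-TG array 3 and in no other of the 6. Which transcript forms these probe sets read was not tested.

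Klf3, the other CtBP-binding repressor of the family, had 7 probe sets, of which 6 passed the filter. Its brightest, 1454666_at, read 2467, 2574 and 2263 in WT and 2324, 2076 and 2748 in Glut1-TG hearts. The Glut1-TG hearts spanned the whole WT range, and the difference was -0.039 (interval -0.30 to 0.23). Of the other passing probe sets, 1431630_a_at read 2071, 1565 and 1563 in WT and 2366, 1796 and 2176 in Glut1-TG hearts, a difference of 0.29 (interval -0.035 to 0.61). Another, 1441200_at, read 76.4, 240.1 and 267 in WT and 589, 308.3 and 275.5 in Glut1-TG hearts. Here the groups did not overlap, but WT array 1 lay far under the other WT arrays and Glut1-TG array 1 far over the other Glut1-TG arrays. Its difference of 1.12 (interval 0.033 to 2.20) was 0.54 without WT array 1 and 0.78 without Glut1-TG array 1. The remaining 3 had differences of -0.15, 0.051 and 0.056.

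Klf10, an early gene induced by transforming growth factor beta (TGF-beta), was the member with the higher reading. Its single probe set, 1416029_at, read 790.4, 811.3 and 539.3 in WT and 1254, 1586 and 1764 in Glut1-TG hearts. The lowest Glut1-TG heart stood well above the highest WT heart, and WT array 3 was low within its group. The mean rose from 713.7 ± 151 (SD, n = 3) to 1534 ± 259 (SD, n = 3), which is 2.16 times the WT signal (95% confidence interval 1.62 to 2.89). The log2 difference was 1.11 (standard error 0.19), with an adjusted p of 0.031 among genes and 0.041 among probe sets (limma). Without WT array 3 it was 0.92 (adjusted p = 0.080), and over the fits without 1 array it ran from 0.92 to 1.253 with an adjusted p of 0.021 to 0.10. The fit without Glut1-TG array 1 was the one of these 6 that kept it under 0.05.

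Klf11, the close relative of Klf10 that TGF-beta also induces, read 1152, 1188 and 1064 in WT and 1219, 1236 and 1386 in Glut1-TG hearts on 1437241_at. All Glut1-TG hearts were above all WT hearts, by a margin smaller than the spread inside either group. The means were 1135 ± 64.1 (SD, n = 3) and 1280 ± 91.7 (SD, n = 3), and the difference of 0.17 had an interval of -0.079 to 0.43 that includes 0.

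Klf9, a gene that glucocorticoids and thyroid hormone induce, was read by 7 probe sets, all above the filter. All 7 differences were above 0, from 0.0046 to 0.30, and every interval included 0. The brightest, 1428288_at, read 7758, 7329 and 7189 in WT and 6250, 9117 and 7768 in Glut1-TG hearts. Glut1-TG array 1 was the lowest of the 6 arrays in 4 of the 7 probe sets and Glut1-TG array 2 the highest in 5 of 7, so single Glut1-TG hearts differed from each other by more than the group means did. The brightest probe set shares its cDNA entry with 1428289_at (difference 0.031) and with the dimmer 1452723_at (0.30, interval -0.89 to 1.49). Klf9 was 1 gene of the 6 with several passing probe sets in which all of them had the same sign.

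Klf13, which in frogs works with GATA factors in heart formation, had 2 passing probe sets of 3. On 1436316_at it read 1454, 1697 and 1690 in WT and 1367, 2056 and 1594 in Glut1-TG hearts, where Glut1-TG array 2 was again the highest and Glut1-TG array 1 the lowest. The difference was 0.035 (interval -0.30 to 0.37), and on 1432543_a_at it was -0.14 (interval -0.55 to 0.27).

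Klf2, the blood-flow responsive factor of endothelial cells, read 2289, 2488 and 2354 in WT and 2286, 2103 and 2798 in Glut1-TG hearts on 1448890_at. The Glut1-TG hearts lay on both sides of the WT range, and the ratio of 1.00 had a 95% confidence interval of 0.835 to 1.201. Klf4, which acts in endothelial and smooth muscle cells, had a pair of probe sets designed from 1 cDNA entry that pointed in opposite directions. On 1417394_at it read 1456, 1592 and 1343 in WT and 1734, 1279 and 1930 in Glut1-TG hearts, a difference of 0.15 (interval -0.19 to 0.50). On 1417395_at it read 1515, 1156 and 1322 in WT and 1016, 1368 and 1156 in Glut1-TG hearts, a difference of -0.18 (interval -0.50 to 0.15). Glut1-TG array 2 was the lowest of its group on the first and the highest on the second, so the probe sets differed in the order of single hearts as well as in sign.

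Klf6, an early response gene of injured tissue, had 5 passing probe sets with differences from -0.31 to 0.080. The brightest, 1433508_at, read 1104, 1410 and 1291 in WT and 1322, 1126 and 1593 in Glut1-TG hearts, with an interval of -0.26 to 0.42. Glut1-TG array 2 was the lowest Glut1-TG heart in 4 of these 5 probe sets and in 4 of the 6 passing Klf3 probe sets, and Glut1-TG array 3 the highest in 4 of 5 and 4 of 6. The order of the Glut1-TG hearts in Klf6 and Klf3 was thus unlike that in Klf9. Of the 4 dim probe sets of the family, 3 were highest on Glut1-TG array 1, which was the highest array in 35.6% of all dim probe sets.

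**Figure D2:**
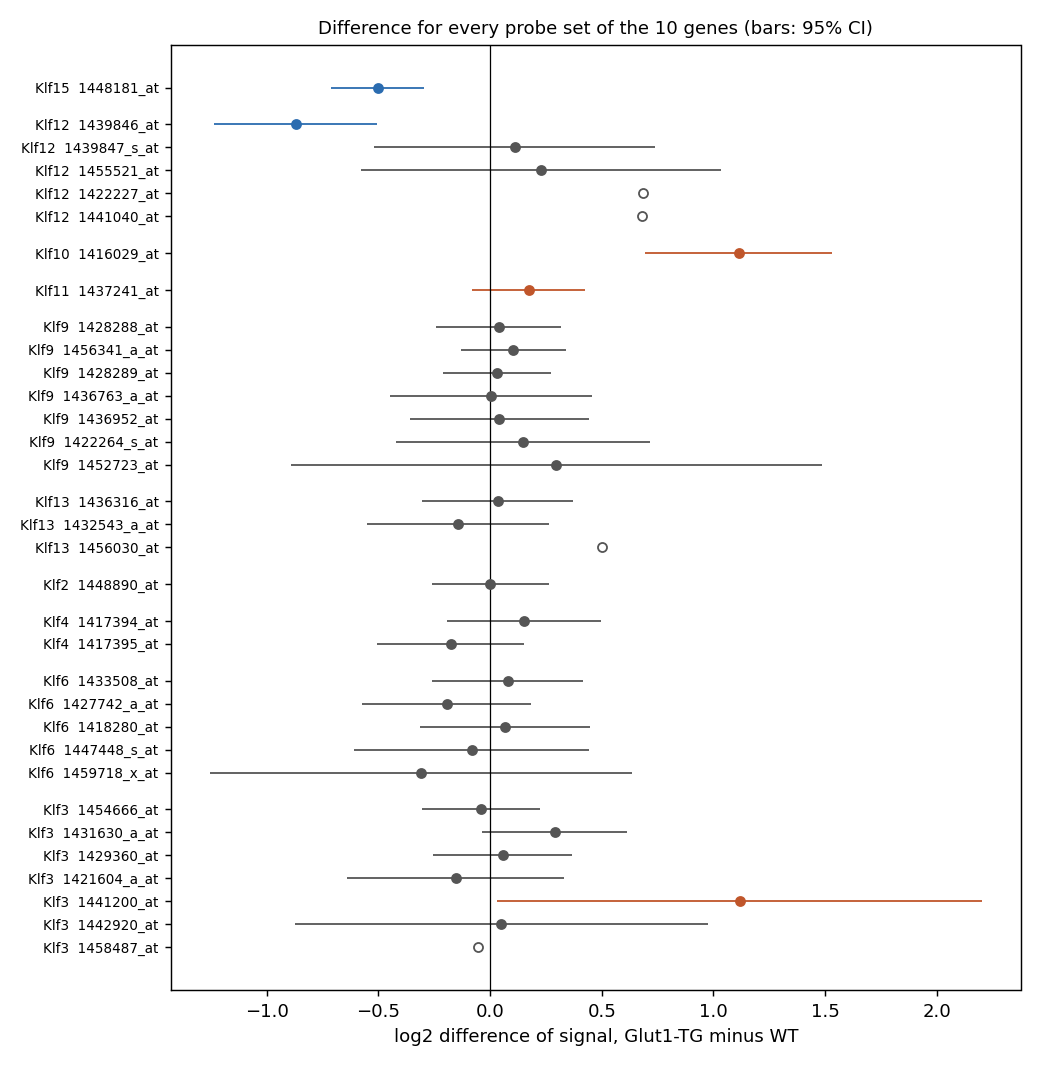
Log2 difference of signal (Glut1-TG minus WT, x axis) of each of the 33 probe sets, grouped by gene. Bars are 95% confidence intervals from limma for the 29 that passed the filter, hollow points are the 4 that did not, and colour marks probe sets in which all Glut1-TG arrays lay below (blue) or above (orange) all WT arrays. Klf12 has 1 blue probe set at -0.87 beside 4 that lie above 0, and the 7 of Klf9 lie between 0.0046 and 0.30.

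**Figure D3:**
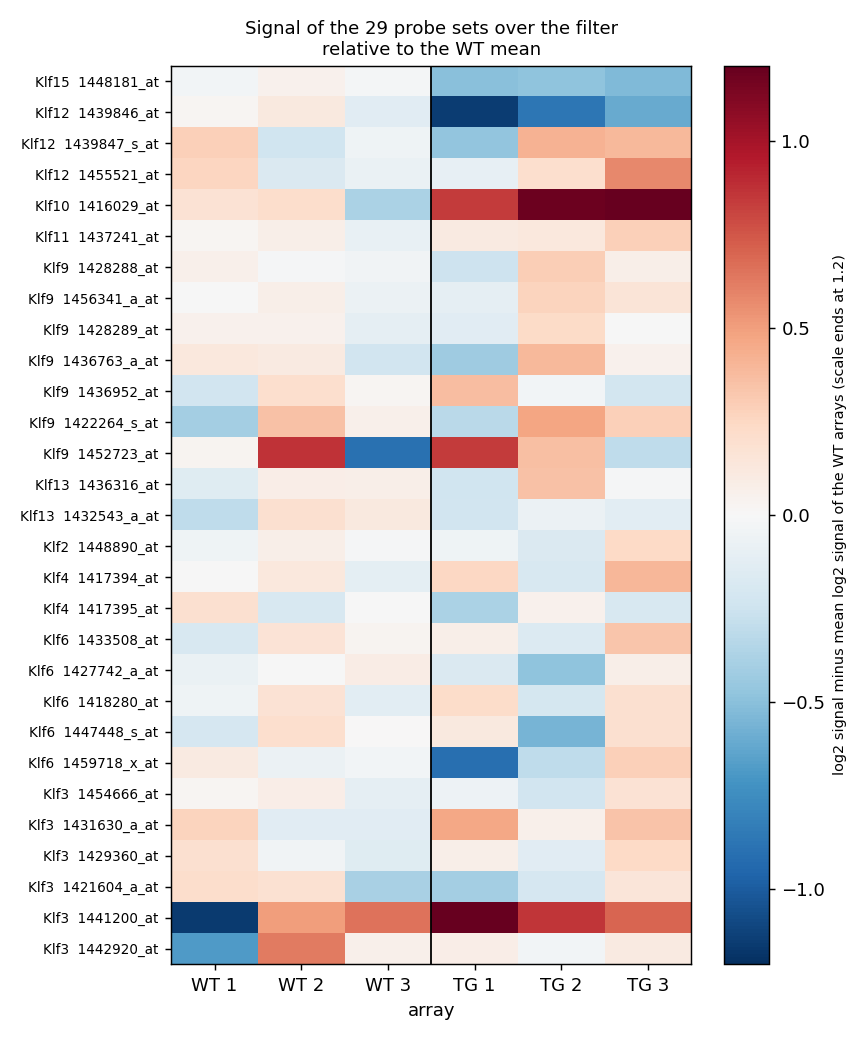
Log2 signal of the 29 passing probe sets (rows) on each of the 6 arrays (columns) relative to the mean of the WT arrays, from blue (lower) to red (higher), with the colour scale ending at 1.2. The rows of Klf15 and of Klf12 1439846_at are blue and the row of Klf10 is red on all 3 Glut1-TG arrays, and most rows of Klf9 are blue on Glut1-TG array 1 and red on Glut1-TG array 2.

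The RNA came from whole left ventricle, where fewer cells of a type and less RNA per cell cannot be told apart. Of 14 cardiomyocyte markers all 14 had a difference below 0, with a median of -0.18, and 0 passed limma (4 at an unadjusted p under 0.05). Their summed signal was 544830 to 665820 in WT and 513140 to 545060 in Glut1-TG hearts, and none was near 0. With each array centred on these markers, which moved the median of all genes from 0.017 to 0.20, Klf15 had a difference of -0.32 (adjusted p = 0.30), Klf12 of -0.68 (adjusted p = 0.17) and Klf10 of 1.30 (adjusted p = 0.024). Of 12 endothelial markers, the cells in which Klf2 and Klf4 are best known, 0 passed limma (0 higher and 2 lower at an unadjusted p under 0.05), and their sums were 19876 to 22163 in WT and 19196 to 20483 in Glut1-TG hearts. Among them Nos3, the nitric oxide synthase that Klf2 activates in endothelium, read 1570, 1551 and 1495 in WT and 1092, 960.7 and 1251 in Glut1-TG hearts, a difference of -0.49 (adjusted p = 0.13). Nos3 was picked after its value was seen. The 12 endothelial markers had 5 differences above 0 and 7 below, with a median of -0.048 against 0.017 over all genes. A part of Klf2 in the Nos3 reading was not tested. The sums of fibroblast (10 genes) and macrophage (10 genes) markers overlapped between the groups, and 0 of either list passed limma (1 higher and 0 lower, and 0 of both, at an unadjusted p under 0.05). Of 8 smooth muscle and pericyte markers 0 passed (0 higher and 2 lower unadjusted), with sums of 34232 to 40878 in WT and 35408 to 36523 in Glut1-TG hearts, and the red blood cell list had 1 gene measured, Alas2, at 0.16 (adjusted p = 0.87). The sum of 3 measured lymphocyte markers, none of them called (1 higher unadjusted), was 968.8 to 1143 in WT and 1273 to 1380 in Glut1-TG hearts, with 4 others of that list under the filter. Of 6 atrial genes, 2 were called higher and the other 4 lay below 0, with a median of -0.050 over the list. Myl4 rose by 1.75 (adjusted p = 0.0085), and by 1.09 with the mean of its probe sets, where it was not called (adjusted p = 0.089). Myl7 read 26.5, 90.5 and 14.2 in WT and 377.7, 712.8 and 314.9 in Glut1-TG hearts, so it passed the filter through the Glut1-TG hearts alone and its difference of 3.76 (adjusted p = 0.041) stands against dim WT signals. With an offset of 50 it was 2.48, the strict filter left it out, and its adjusted p was 0.14 without WT array 1 and 0.091 without WT array 3. The part of these genes in the results of the Kruppel-like factors was not tested beyond the centring.

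The rest of the family and its partners gave no call. Of 6 other Kruppel-like factors measured, 0 passed limma in either direction (0 also at an unadjusted p under 0.05), with a median of 0.066 against 0.017 over all genes. The lowest p values among them belonged to Klf1, the erythroid factor, at 0.68 (adjusted p = 0.57), and Klf16 at -0.49 (adjusted p = 0.60). Of 4 Sp factors, 0 passed (0 also unadjusted), with Sp1 at 0.19 (adjusted p = 0.67) and Sp6 at 0.34 (adjusted p = 0.84). Of 14 cofactors and ubiquitin ligases that act on Kruppel-like factors, 0 passed and 2 were lower at an unadjusted p under 0.05. These were Sap30, a subunit of the Sin3 complex, at -0.53 (adjusted p = 0.32) and Hdac3, a histone deacetylase, at -0.23 (adjusted p = 0.42).

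Of the 5 genes called in the 9 lists around the family, 4 were reported targets of KLF15. Of 15 measured, 4 fell and 0 rose by limma, and the median was -0.36 against 0.017 over all genes. The branched-chain amino acid genes in this list belong to a pathway that the study chose on these samples, so their direction is not independent evidence. Bckdhb, a subunit of the branched-chain keto acid dehydrogenase, read 2822, 2613 and 2524 in WT and 628.2, 747.3 and 616.4 in Glut1-TG hearts, a difference of -2.002 (standard error 0.12, adjusted p = 0.00016). Dbt (-1.27, adjusted p = 0.0065) and Bckdha (-0.62, adjusted p = 0.041), which encode its partner subunits, fell too. The fourth was Acss1, the mitochondrial acetyl-CoA synthetase, at -0.59 (adjusted p = 0.031), which was -0.33 and not called (adjusted p = 0.49) with the mean of its probe sets. Gpt (-0.97, adjusted p = 0.055) and Bcat2 (-0.96, adjusted p = 0.063), both amino acid transaminases, had adjusted p values just over the threshold. With 1 array left out at a time, Bckdhb and Dbt were called in all 6 fits, Bckdha without Glut1-TG array 2 alone (adjusted p = 0.027, and 0.051 to 0.15 in the others) and Acss1 in 0 of 6 (0.053 to 0.12). Not all members of the list went down, and Pdk4, the kinase that inhibits pyruvate dehydrogenase, stood at 0.33 (adjusted p = 0.15). Quantile normalization gave 1 gene of this list higher and 4 lower. The study's thresholds (a minimum fold and p without adjustment) gave 1 higher and 6 lower. Centring on the cardiomyocyte markers gave 1 higher and 2 lower, and Bckdha and Acss1 lost their call there.

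Genes of the pathways known to regulate Klf15 and Klf9 gave no call in this fit. These are RNA levels, and the activity of CREB or of the other regulators was not measured on the arrays. In cultured neonatal rat cardiomyocytes at high glucose, the paper reported lower CREB phosphorylation, less CREB at the KLF15 promoter and lower CREB reporter activity. At the study's thresholds, which set a minimum fold and use p without adjustment, there was 1 gene higher in the glucocorticoid list and 1 lower in each of the CREB and clock lists, and quantile normalization and centring on the cardiomyocyte markers each gave 1 higher in the glucocorticoid list. Of 10 genes of CREB and its coactivators, 0 passed limma (2 lower at an unadjusted p under 0.05). Creb1 itself read 1277, 1155 and 1172 in WT and 938.4, 843.1 and 1074 in Glut1-TG hearts, a difference of -0.34 (adjusted p = 0.35), and Sik1, the kinase that holds the coactivators in the cytoplasm, stood at -0.38 (adjusted p = 0.43). Of 14 genes of the glucocorticoid receptor and its targets, which include inducers and companions of Klf9 and Klf15, 0 passed (3 higher unadjusted), with the ubiquitin ligase Fbxo32 at 0.44 (adjusted p = 0.22) and Pdk4 as above. Of 17 clock genes, 0 passed (4 lower unadjusted), with the repressors Nr1d2 at -0.32 (adjusted p = 0.14) and Nfil3 at -0.82 (adjusted p = 0.16). Single hearts differed widely in some clock genes, picked after their values were seen. Nr1d1 read 1878, 1126 and 1164 in WT and 2053, 2220 and 789.8 in Glut1-TG hearts. Glut1-TG array 3 was also the lowest array for Ciart (214.1) and Dbp (1437), but the highest Glut1-TG array for Per2 (900.4). The time of day at which the hearts were taken is not known here, and its part was not tested. The medians of the CREB, glucocorticoid and clock lists were -0.13, 0.19 and -0.038, against 0.017 over all genes. In the glucocorticoid list 11 genes lay above 0 and 3 below.

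Around Klf10 and Klf11, 0 of 16 genes of TGF-beta signalling passed (1 lower unadjusted). Their median was 0.051, with Smad2, a signal transducer, at -0.45 (adjusted p = 0.35) and Tgfb2, a ligand, at 0.46 (adjusted p = 0.49). Of 20 immediate early genes, 1 rose and 0 fell by limma (2 higher and 1 lower unadjusted). This was Ccn1, a secreted matrix protein, which read 2074, 2175 and 2398 in WT and 3103, 3521 and 3903 in Glut1-TG hearts, a difference of 0.66 (adjusted p = 0.027). Egr3, another early zinc-finger factor, stood at 1.92 (adjusted p = 0.19). It read 256.8, 88 and 78.1 in WT and 842.8, 420.1 and 271.5 in Glut1-TG hearts, so WT arrays 2 and 3 were dim, under a signal of 115. The median of the list was 0.0003, with 10 genes above and 10 below 0. Without 1 array the adjusted p of Ccn1 was 0.015 without Glut1-TG array 1 and 0.062 to 0.12 without any other.

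**Figure D4:**
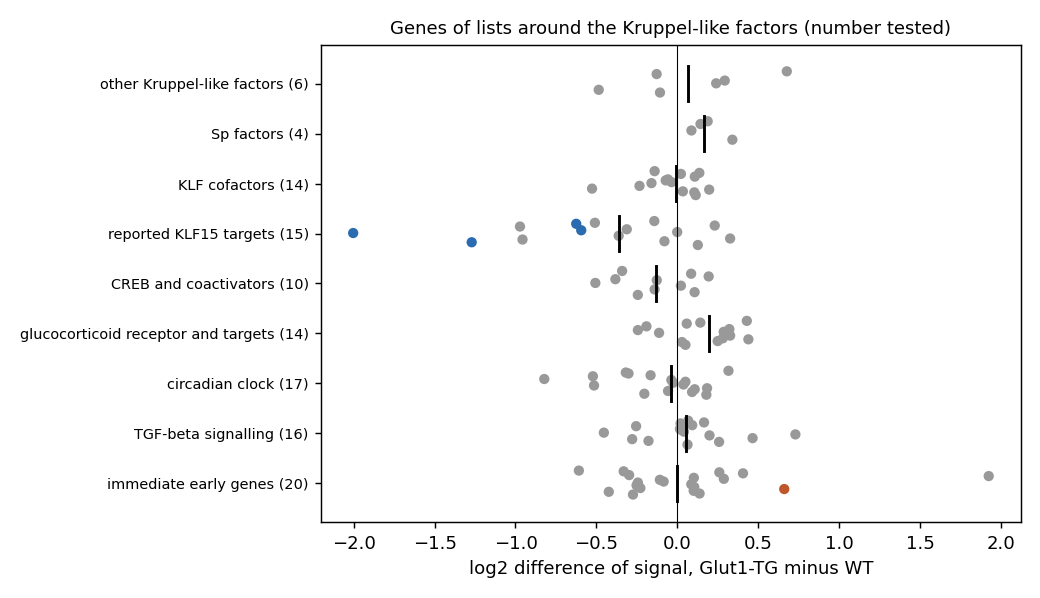
Log2 difference of signal (Glut1-TG minus WT, x axis) of the genes in 9 lists around the Kruppel-like factors, with the number tested in brackets. Points are genes, coloured where the adjusted p from limma is under 0.05 (blue lower, orange higher), and the black bar is the median of the list. The targets reported for KLF15 hold the 4 blue points and a median of -0.36, and the immediate early genes hold the 1 orange point.

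The genes whose log2 signal followed a member most closely over the 6 arrays were listed for the 3 members with a call, by Pearson correlation with the group difference included. For Klf15 they were Bckdhb, Kyat3 and Gimap4 (each 0.99), and 92 of 13177 genes were above 0.95. For Klf10 they were Hdac5, Zdhhc3 and Myhas (each 0.99), with 37 genes above 0.95. For Klf12 they were Psip1, Stn1 and Tst (each 0.99), with 95 genes above 0.95. These values include the group difference and describe the 6 arrays alone.

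**Figure D5:**
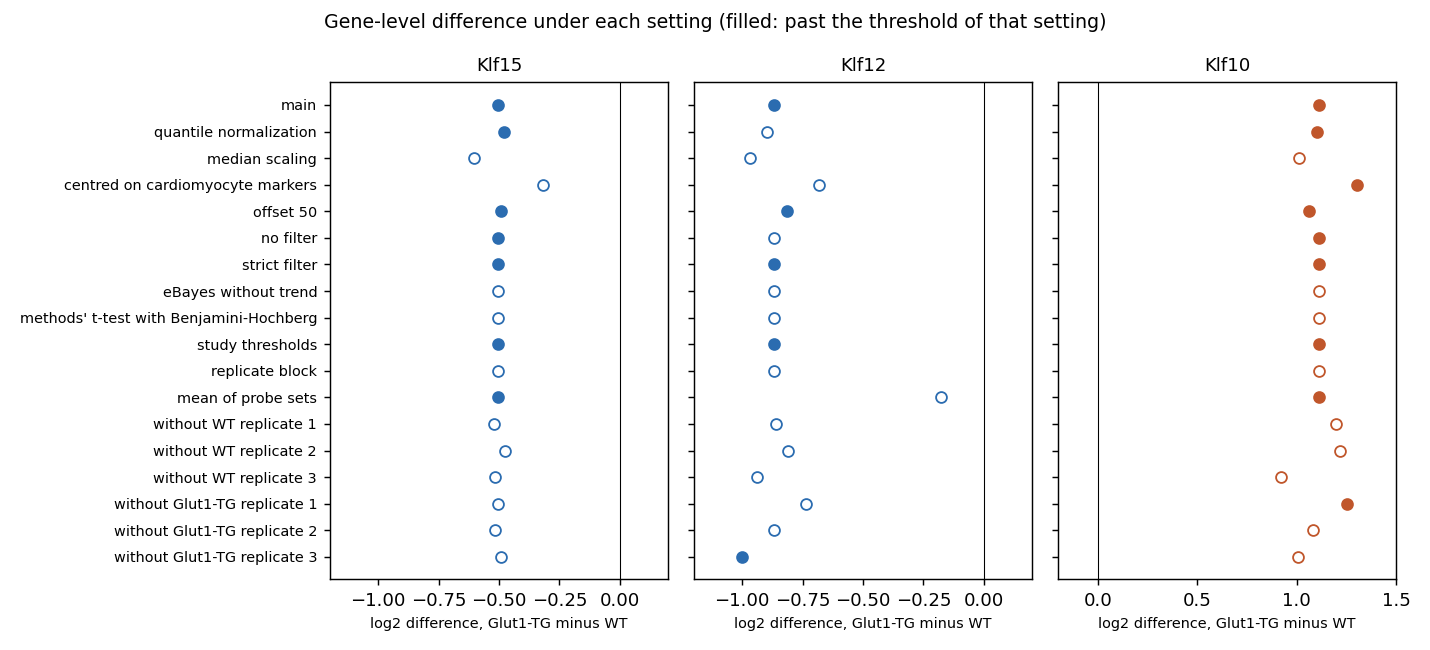
Gene-level log2 difference (Glut1-TG minus WT, x axis) of Klf15, Klf12 and Klf10 in the fit used in the text (main) and under 17 other settings (rows), filled where the gene was past the threshold of that setting. Klf15 stays between -0.60 and -0.32 and Klf10 between 0.92 and 1.30, while Klf12 moves to -0.18 with the mean of its probe sets.

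The difference of each of these 3 genes kept its sign in all 17 other settings, while the call did not. Klf15 stayed called in 6 of 17, Klf10 in 8 of 17 and Klf12 in 4 of 17. Among the 7 members without a call, the sign of the gene-level difference changed in at least 1 setting for Klf2, Klf3, Klf4, Klf6, Klf9 and Klf13, and in 0 of 17 for Klf11.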

How the data were processed

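The authors labelled total RNA of each left ventricle as biotinylated cRNA for an Affymetrix mouse expression array and used the GCOS software on the scans (no version is given in the sources used here). The deposited values are linear signal intensities, 1 per probe set, with no detection call. Their mean, after 2% was trimmed from either end, came to 500 on every array, so they were taken as scaled by the authors and used without further scaling. The 64 control probe sets of 45101 were left out, values under 1 (48 in all) were set to 1, and log2 was taken. Of 45037 probe sets, 34945 had 1 symbol in the platform annotation, 932 several and 9160 none. Entrez identifiers of 34741 of these were matched in the RefSeq gene table and 204 were not, and 0 symbols were updated.

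Glut1-TG was compared with WT in R 4.3.3 with limma 3.58.1 (lmFit, eBayes with an intensity trend), after leaving out the lowest 40% of probe sets by mean log2 signal (a mean under that of a signal of 115), at an adjusted p of 0.05 (Benjamini-Hochberg). It was fitted on 27022 probe sets, and on 13178 genes by the brightest probe set of each. The fit was also run on simulated independent normal values with known differences added. That simulation held no array effects, so it cannot show how far such effects move the calls. The number of arrays limits the precision, and the labels do not say whether the 3 hearts of a group shared a litter or a batch.

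The members, the 9 gene lists, the 8 marker lists and the settings were chosen with earlier results of these data known. Named genes are all members with each probe set, in each of the 9 gene lists the genes past the threshold or otherwise the 2 with the lowest p, and the 3 genes most correlated with Klf15, Klf10 and Klf12. Some others are named in addition, chosen after their values were seen. They are Gpt, Bcat2 and Pdk4 among the KLF15 targets, Nr1d1, Ciart, Dbp and Per2 among the clock genes, Nos3 and Egr3. Motifs were searched as exact letters in the 250 bases before each start in the set of promoter sequences. The settings tried were quantile normalization, median scaling, centring on cardiomyocyte markers, an offset of 50, no filter, a strict filter (the lowest 60% left out), eBayes with no trend, the methods' t-test adjusted by Benjamini-Hochberg, the study's thresholds (fold change over 1.25 and unadjusted p under 0.05 by the methods' t-test), the replicate number as a block, averaging the passing probe sets of each gene, and leaving out each array in turn. The paper names no test for the array, so the methods' t-test was taken as the unpaired Student's test of its statistics section. Array annotation can be old, and probe sets ending in _s_at or _x_at can read related transcripts.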

Additional observations from a re-analysis of the deposited data

How the results depend on the processing

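The text counts 1 higher and 0 lower of the member probe sets, 1 higher and 2 lower of the member genes, and 1 higher and 4 lower of the genes of the 9 lists. An offset of 50 kept each of these within 1.5 times. Quantile normalization gave 2 list genes higher and 1 member gene lower. Median scaling left 0 member probe sets, 0 member genes and 0 list genes higher and 0 member genes lower, and moved the median of all genes to -0.084. Centring on the cardiomyocyte markers gave 2 list genes higher, 2 list genes lower and 0 member genes lower, and over all genes 61 higher and 25 lower, against 34 and 79 in the text, 48 and 66 with quantile normalization and 14 and 52 with median scaling. Without a filter, 1 member gene was lower (66 of all 18193 genes) and 0 member probe sets were higher (29 of all 45037 probe sets). With the strict filter 2 member probe sets were lower (117 of all 18015 probe sets). Averaging the passing probe sets of each gene gave 1 member gene lower and 0 list genes higher, and the member call it lost was Klf12. Over all 13178 genes this averaging gave 21 higher and 47 lower. eBayes without trend gave 0 member probe sets and 0 member genes higher, 0 member genes lower, and 0 higher and 1 lower among list genes, and over all genes 2 higher and 2 lower. The methods' t-test, adjusted by Benjamini-Hochberg, gave 0 for each of these, list genes lower included, and 1 higher and 0 lower over all genes. The study's thresholds gave 2 member probe sets lower (699 of all 27022 probe sets). They gave 2 list genes higher and 9 lower, where 423 genes were higher and 349 lower in all. These counts use the brightest probe set of each gene above the filter, so they are not a remake of the study's gene lists.

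With the replicate block, 0 member probe sets and 0 member genes were higher and 0 member genes lower, and 2 list genes were higher and 2 lower. Over the whole array the block gave 36 probe sets higher, and 23 genes higher and 46 lower. Deviations of same-numbered arrays correlated at 0.093, -0.023 and 0.065. The same-numbered WT array was the best match for Glut1-TG arrays 1 and 3, while Glut1-TG array 2 correlated best with WT array 3 (0.023). All correlations between the groups lay between -0.11 and 0.093, so they cannot decide whether equal numbers pair the hearts. The labels do not say it either.

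Leaving out 1 array at a time gave 0 to 1 member probe sets higher and 0 to 1 lower, 0 to 1 member genes higher and 0 to 1 lower, and 0 to 1 list genes higher and 2 to 4 lower. Over the whole array these fits gave 16 to 38 probe sets higher and 25 to 76 lower. Among all genes they gave 12 to 32 higher and 30 to 63 lower. The adjusted p of the gene was 0.021 to 0.32 for Klf10 over the settings that give one, 0.030 to 0.30 for Klf15 and 0.033 to 0.82 for Klf12, and no direction of these 3 was turned. Why the calls moved was not tested beyond what each setting changes. The filter on mean log2 signal left 4 probe sets of the family without a test.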
